A study of Mus musculus with 24 samples.

Results

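The transcripts of 9 ErbB ligand genes, Nrg1, Nrg4, Egf, Areg, Ereg, Hbegf, Tgfa, Btc and Epgn, were followed through the sorted epithelium of the mouse small-intestinal crypt. They were taken by symbol from a deposited count table of 43280 gene symbols, and all 9 were in it. Male Lgr5-EGFP C57BL/6 littermates had been injected intraperitoneally with 7.5 µg of NRG1 (3 mice) or with PBS (3 mice) every 12 h for 5 days, and tissue was taken on day 6. Replicates 1 and 2 of each arm were aged 15 weeks, and replicate 3 was aged 11 weeks. Every mouse carried the Lgr5-EGFP reporter, whose green fluorescence marks cells by Lgr5 expression, so no group lacked it. Crypt cells that excluded propidium iodide, a dye of dead cells, and lacked CD31 and CD45, markers of endothelial and blood cells, were split into 4 populations by EGFP and CD24. Those populations were Lgr5high-CD24low (labelled crypt base columnar stem cells), Lgr5med-CD24low (immediate progenitors), Lgr5low-CD24low (subsequent progenitors) and Lgr5neg-CD24neg (differentiated cells), and they are called Lgr5high, Lgr5med, Lgr5low and Lgr5neg here. Each mouse gave 1 library per population, which made 24 libraries in 8 groups of 3.

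ErbB ligands are growth factors that are mostly made as membrane-anchored precursors and cut loose by surface proteases. They bind the receptors EGFR, ErbB3 and ErbB4, and ErbB2 has no ligand of its own but pairs with the others. EGF, TGFα, amphiregulin (Areg) and epigen (Epgn) bind EGFR, while betacellulin (Btc), epiregulin (Ereg) and heparin-binding EGF (Hbegf) bind EGFR and ErbB4. Neuregulin 1 (Nrg1) binds ErbB3 and ErbB4, and neuregulin 4 (Nrg4) binds ErbB4. In the intestine EGFR signalling drives crypt proliferation, and EGF family ligands come from the epithelium and from the tissue around it.

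Epgn, Ereg, Areg and Btc are neighbours on chromosome 5. On GRCm38 (GENCODE vM21) Epgn spans chr5:91027464-91035215, Ereg chr5:91074622-91093646, Areg chr5:91139599-91148432 and Btc chr5:91357261-91402994, with only Btc on the minus strand. The group covers 375.5 kb, the gaps between its genes are 39.4, 46.0 and 208.8 kb, and 0 other protein-coding genes lie between them. Tgfa lies at chr6:86195223-86275719, Egf at chr3:129677565-129755316 (minus strand) and Nrg4 at chr9:55220222-55326844 (minus strand). The 190 bases before the start are printed below, 5′ to 3′ on the gene's strand, from RefSeq on GRCm38.p6, for Epgn, Areg and Btc, because these neighbours showed 3 different patterns along the crypt, and for Tgfa, the ligand with the highest level per length. The windows are chr5:91027274-91027463 for Epgn, chr5:91139409-91139598 for Areg, chr5:91402995-91403184 for Btc (minus strand) and chr6:86195032-86195221 for Tgfa. Capitals mark matches to 4 motifs searched on both strands: the cAMP response element TGACGTCA, the AP-1 site TGANTCA, the TATA box TATAAA and the GC box GGGCGG.

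Epgn: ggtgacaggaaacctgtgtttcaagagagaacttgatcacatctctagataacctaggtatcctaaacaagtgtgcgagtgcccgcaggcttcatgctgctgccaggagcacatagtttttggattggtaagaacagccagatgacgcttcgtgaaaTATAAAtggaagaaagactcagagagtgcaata

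Areg: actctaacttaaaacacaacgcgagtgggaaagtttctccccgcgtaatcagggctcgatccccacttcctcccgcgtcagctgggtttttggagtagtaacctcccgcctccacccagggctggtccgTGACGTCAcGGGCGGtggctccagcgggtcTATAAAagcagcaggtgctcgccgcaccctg

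Btc: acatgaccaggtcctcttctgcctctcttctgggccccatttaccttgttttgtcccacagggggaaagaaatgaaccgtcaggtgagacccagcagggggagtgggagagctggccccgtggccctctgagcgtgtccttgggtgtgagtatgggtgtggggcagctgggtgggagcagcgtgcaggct

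Tgfa: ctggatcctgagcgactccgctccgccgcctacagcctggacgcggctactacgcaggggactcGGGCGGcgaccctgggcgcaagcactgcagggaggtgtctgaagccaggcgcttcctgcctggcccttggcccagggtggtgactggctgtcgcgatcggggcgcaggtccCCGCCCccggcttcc

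The Areg window held 1 cAMP response element beginning 61 bases before the start, 1 GC box beginning 52 bases before it and 1 TATA box beginning 31 bases before it. These motifs occur in 1.46%, 30.7% and 9.44% of 32851 RefSeq promoter windows of the same length. The Epgn window held 1 TATA box, beginning 33 bases before the start. For Tgfa there were 2 GC boxes. In the Btc window none of the 4 motifs matched, and the AP-1 site, found in 5.21% of all windows, matched in none of the 4 printed. A match is a description of the letters and not a measured binding site.

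Library totals ran from 11176264 to 23343499 counts, of which the mitochondrial ribosomal RNAs took 37.6% to 62.4%. The 9 ligands together drew 367 to 895 counts per library. Levels are given as CPM, counts relative to the scaled size of each library, and a count of 3, at or below which a gene is called near zero here, was worth 0.113 to 0.239 CPM. That floor covers counting error only. The markers followed the sort labels in that 8 of 8 stem cell markers were lower, and 10 of 10 enterocyte markers higher, in Lgr5neg than in Lgr5high cells in both arms. Lymphocyte markers (9 genes, summed) were at 87.3 to 189 CPM in Lgr5neg PBS libraries and 53.0 to 424 CPM in Lgr5neg NRG1 libraries, against 1.28 to 5.30 CPM in all other libraries. Goblet markers (7 genes, summed) were at 15948 to 30558 CPM in Lgr5low libraries, against 397 to 1954 CPM in Lgr5high libraries. Paneth markers (8 genes, summed) were at 1850 to 3263 CPM in Lgr5high PBS and 1167 to 1894 CPM in Lgr5high NRG1 libraries. In Lgr5low libraries they were at 909 to 4494 CPM with PBS and 850 to 4994 CPM with NRG1. The stem cell and progenitor sorts thus also held secretory transcripts. In bulk libraries fewer expressing cells and less RNA per cell cannot be told apart.

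Nrg1 and Epgn were the ligands near zero. Nrg1, at chr8:31814551-32884029 (minus strand), whose protein was the agent injected, had 4 counts over all 24 libraries, 3 in Lgr5low PBS replicate 2 and 1 in Lgr5med PBS replicate 3, and 0 in the other 22. All 8 groups were therefore near zero for it, and the 12 NRG1-treated libraries held no count. Epgn had 16 counts and was at 0 in 20 libraries. Of those counts 8 came from Lgr5high PBS replicate 1, 3 each from Lgr5low and Lgr5neg NRG1 replicate 1, and 2 from Lgr5high NRG1 replicate 2. Only that first library lay above the floor, so 7 of the 8 groups were near zero for Epgn. At this depth transcripts of either gene below the floor could have been missed. Nrg2 and Nrg3, the remaining neuregulin genes, had 0 counts in every library. Mesenchymal markers, which would show stromal cells, summed to 0.399 to 14.8 CPM over 9 genes, with Col3a1 and Lum at 0 in all 8 groups and Pdgfra at 0 in 7 of them. Vim (up to 13.7 CPM, in Lgr5low) and Pdgfrb (up to 3.54 CPM, in Lgr5neg) made up most of that sum. Neural and glial markers summed to at most 1.60 CPM.

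Egf was near zero in part of a single population. Its counts were 5, 0 and 1 in the Lgr5neg libraries of PBS mice and 0, 5 and 7 in those of NRG1 mice, while every library of the other populations had 9 or more. Areg had 3 counts or fewer in 3 libraries (Lgr5med NRG1 replicate 2, Lgr5low PBS replicate 2 and Lgr5low NRG1 replicate 2) and Ereg in 2 (Lgr5high PBS replicate 1 and Lgr5low NRG1 replicate 2). Tgfa, Btc, Hbegf and Nrg4 were above the floor in all 24 libraries. Both Nrg1 and Epgn failed the filter on low counts, so 7 of the 9 ligands could be tested over the whole series.

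**Figure D1:**
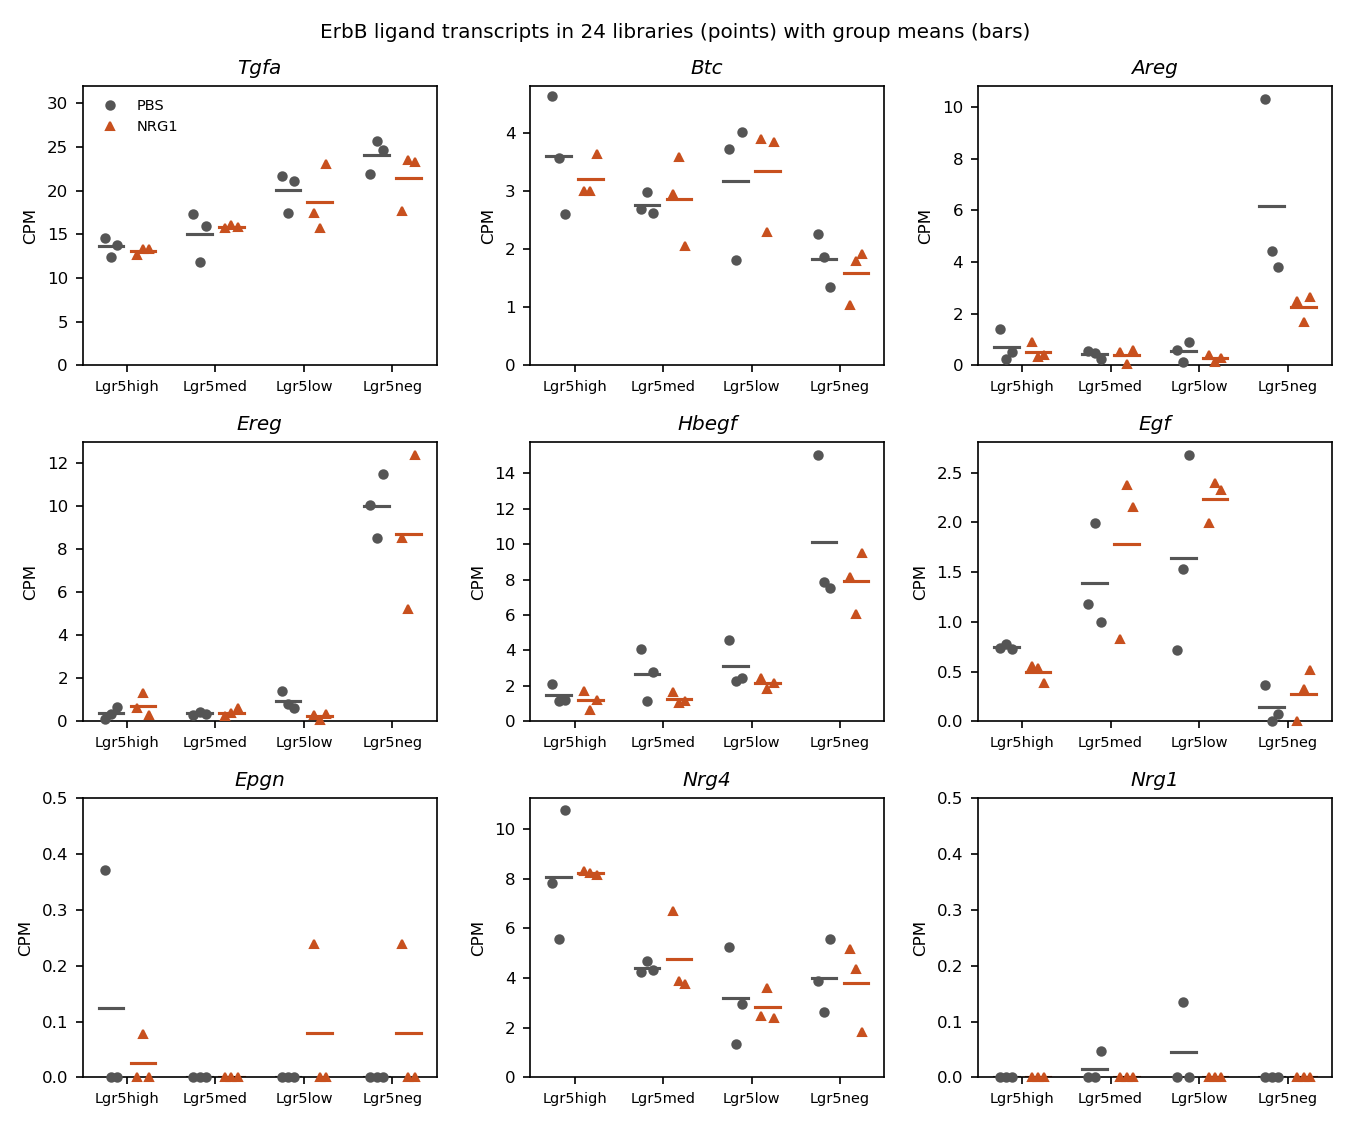
Level of each ligand (y axis, CPM on a linear axis that differs between panels) in the 4 populations (x axis), with circles for PBS libraries, triangles for NRG1 libraries and bars for the means of 3. Areg, Ereg and Hbegf stand highest in Lgr5neg, Nrg4 in Lgr5high, Egf drops in Lgr5neg, and Nrg1 and Epgn are at 0 in 22 and 20 of the 24 libraries.

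Across genes, levels were compared per kb of exon. Tgfa ranked first in 23 of 24 libraries and second in the remaining one. It made up 44.1% ± 11.2 (SD, n = 24 libraries) of the summed CPM per kb of the 9 ligands, from 18.2% to 63.3%. That SD pools all sorts of each mouse and is not a spread of replicates. Group means ran from 27.1% in Lgr5neg PBS to 56.8% in Lgr5low NRG1 libraries. In the library where Tgfa was second, Lgr5neg PBS replicate 1, Areg came first with 8.47 CPM per kb against 3.37 for Tgfa. Nrg4 was second to Tgfa in 11 libraries, 6 of them the Lgr5high libraries. Egf, the namesake of the family, had a best rank of 5, with a highest value of 0.237 CPM per kb.

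The summed ligand level was highest in the differentiated sort. It was 14.4 ± 3.61 CPM per kb in Lgr5neg cells of PBS mice and 9.97 ± 1.45 in those of NRG1 mice (SD, n = 3). In the other 6 groups the means lay between 4.70 and 5.79 CPM per kb. The make-up differed as well: the mean share of Tgfa was 54.6% in Lgr5low and 27.1% in Lgr5neg cells of PBS mice, while that of Areg was 7.22% and 33.6%. These sums and shares are descriptions and were not tested, and the sums also rest on the scaling of library sizes.

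**Figure D2:**
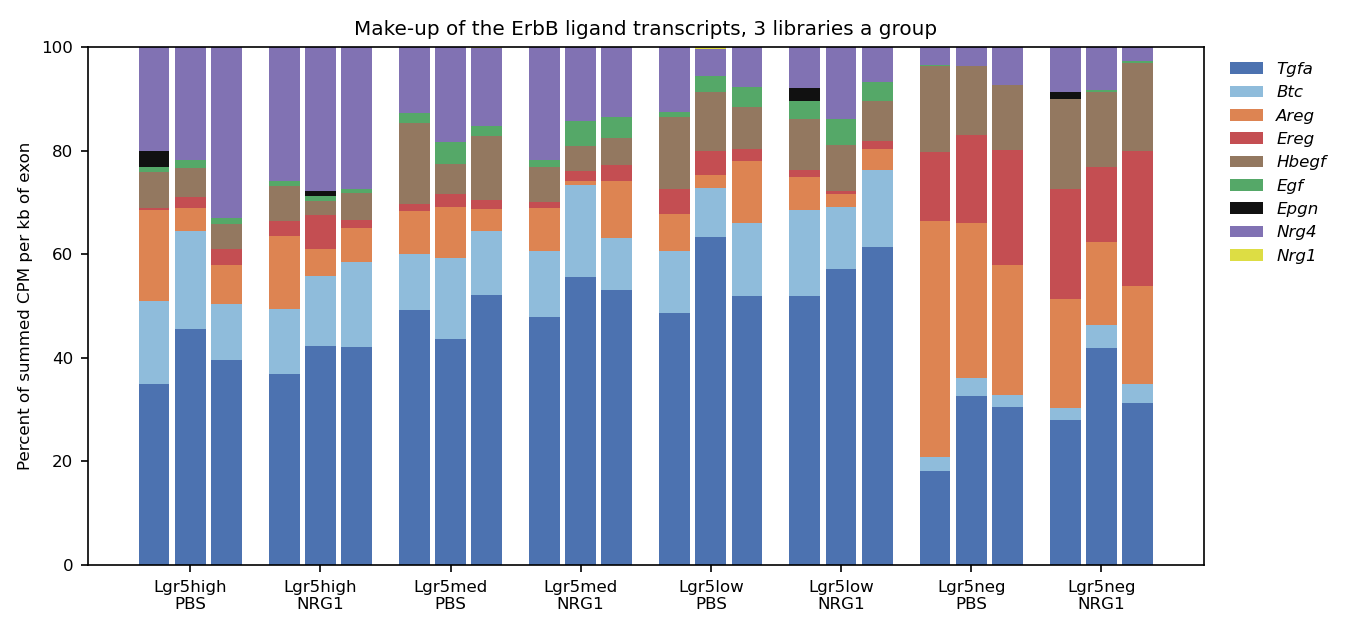
Share of each ligand in the summed CPM per kb of exon (y axis, percent) for each of the 24 libraries, grouped in threes by population and treatment (x axis). Tgfa takes 18.2% to 63.3%, Nrg4 is widest in Lgr5high, and Areg, Ereg and Hbegf widen in Lgr5neg.

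The first comparison asked how the ligands differ between populations, separately in PBS mice and in NRG1 mice, which share no library. Log2 differences, their standard errors (SE) and p-values adjusted over all genes come from edgeR's quasi-likelihood test, and the threshold for a call was an adjusted p of 0.05. Between Lgr5neg and Lgr5high cells of PBS mice 7 of 7 tested ligands were called, where 67.4% of all genes were, with 4 higher (32% of all genes) and 3 lower (35.4%) in Lgr5neg. In NRG1 mice the count was 6 of 7, against 65.5% of all genes, with 4 higher (32%) and 2 lower (33.5%). Lgr5neg and Lgr5med cells differed in 5 of 7 ligands in each arm (63.2% of all genes in PBS and 63.7% in NRG1 mice). For Lgr5neg and Lgr5low cells the count was 4 of 7 in PBS mice (55.8% of all genes) and 5 of 7 in NRG1 mice (57% of all genes). Lgr5low and Lgr5high cells differed in 3 of 7 ligands in each arm (33.2% and 24% of all genes). These counts were close to what all genes showed, so the number of called ligands does not set the family apart.

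Neighbouring sorts among Lgr5high, Lgr5med and Lgr5low cells gave no call. Between Lgr5high and Lgr5med cells 0 of 7 ligands were called in either arm, where 9.17% (PBS) and 3.11% (NRG1) of all genes were. Between Lgr5med and Lgr5low cells the count was again 0 of 7 in each arm, against 7.59% and 4.72%. At an unadjusted p under 0.05 there were 1 and 2 ligands for these pairs in PBS mice and 2 and 2 in NRG1 mice. DESeq2 called 1 of these differences, that of Egf between Lgr5med and Lgr5high cells of NRG1 mice (log2 difference 1.86 and adjusted p = 0.0842 in edgeR, adjusted p = 0.0194 in DESeq2). This Egf difference was also called without the filter on low counts (0.0114), without Lgr5med NRG1 replicate 1 (0.0399) and without Lgr5neg NRG1 replicate 1 (0.0273), within 0.0114 to 0.299 over the alternatives run. The Nrg4 difference between the same sorts of PBS mice was called only without the filter (log2 difference -0.86, adjusted p = 0.178 as fitted and 0.0358 without the filter, within 0.0358 to 0.521).

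Areg, Ereg and Hbegf, ligands that dock to EGFR and are known as rapidly inducible genes, were higher in Lgr5neg cells than in each other population, in both arms. Ereg stood at 10.1, 8.54 and 11.5 CPM in the Lgr5neg libraries of PBS mice and at 8.54, 5.21 and 12.4 CPM in those of NRG1 mice. In the 18 other libraries it ranged from 0.0870 to 1.40 CPM, so no library of another population reached the Lgr5neg values. Such separation was common: in PBS mice 71.3% of all genes tested had no overlap between Lgr5neg and Lgr5high cells, and 68.2% between Lgr5neg and Lgr5med cells. Against Lgr5high cells the log2 difference of Ereg was 4.79 (SE 0.47, adjusted p = 2.53e-08) in PBS and 3.63 (SE 0.51, adjusted p = 6.97e-06) in NRG1 mice. Against Lgr5low cells it was 3.47 (SE 0.43, adjusted p = 1.05e-06) and 5.25 (SE 0.62, adjusted p = 1.53e-06), which is 10.6-fold and 34.0-fold by the means.

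Areg stood at 10.3, 4.42 and 3.81 CPM in Lgr5neg libraries of PBS mice and at 2.47, 1.67 and 2.65 CPM in those of NRG1 mice. The highest of the 18 other libraries was Lgr5high PBS replicate 1 at 1.39 CPM, below all of these. Its log2 difference between Lgr5neg and Lgr5low cells was 3.57 (SE 0.64, adjusted p = 0.000122) in PBS and 3.17 (SE 0.76, adjusted p = 0.00164) in NRG1 mice. Against Lgr5high cells it was 3.21 (adjusted p = 0.00018) and 2.18 (adjusted p = 0.00766). Among the 3 stem and progenitor sorts Areg had no order that held: it lay at 0.0377 to 1.39 CPM with overlap between all of them, and its difference between Lgr5med and Lgr5high cells of PBS mice went from -0.69 to 0.24 without Lgr5high PBS replicate 1.

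Hbegf, on chromosome 18, whose precursor also serves as the diphtheria toxin receptor in primates, stood at 15.0, 7.84 and 7.53 CPM in Lgr5neg libraries of PBS mice and 8.14, 6.04 and 9.50 CPM in those of NRG1 mice. All other libraries were lower, at 0.653 to 4.58 CPM. The log2 difference between Lgr5neg and Lgr5high cells was 2.84 (SE 0.44, adjusted p = 1.95e-05) in PBS and 2.83 (SE 0.35, adjusted p = 1.74e-06) in NRG1 mice, and against Lgr5low cells 1.78 and 1.94. Within each of the 6 mice Hbegf was also higher in Lgr5low than in Lgr5high cells. That step was not called as fitted (log2 difference 1.06, adjusted p = 0.074 in PBS mice and 0.89, adjusted p = 0.0846 in NRG1 mice), but it was called with the mouse as a block (1.04, adjusted p = 0.00796, and 0.96, adjusted p = 0.027). It was also called in PBS mice without the filter (0.00778), without Lgr5med PBS replicate 2 (0.0376) and with all 24 libraries in 1 model (0.0472), and in NRG1 mice without Lgr5high NRG1 replicate 1 (0.0397). Over the alternatives its adjusted p ran from 0.00778 to 0.314 in PBS and from 0.027 to 0.282 in NRG1 mice.

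For these 3 genes all calls of Lgr5neg against another population held in every alternative run, and the difference had the same sign within each of the 3 mice of each arm. Immediate-early genes were read beside them: 8 of 14 tested were higher and 2 lower in Lgr5neg than in Lgr5high cells of PBS mice, and 6 higher and 3 lower in NRG1 mice (median log2 difference 1.33 and 0.83, against -0.09 and -0.08 over all genes). Of all genes 32% were called higher in each arm, and 35.4% and 33.5% lower, so the count of 6 in NRG1 mice was near that share. Their summed level over 15 genes was 974 to 1199 CPM in Lgr5neg PBS and 689 to 882 CPM in Lgr5neg NRG1 libraries, against 355 to 657 CPM in the other 18. Lymphocyte markers rose in the same sort, with 9 of 9 tested higher in Lgr5neg than in Lgr5high cells of PBS mice and 7 of 8 in NRG1 mice. In PBS mice the lymphocyte sum was 130, 189 and 87.3 CPM in Lgr5neg replicates 1, 2 and 3, where Areg and Hbegf were highest in replicate 1 and Ereg in replicate 3. In NRG1 mice it was 134, 424 and 53.0 CPM, where all 3 ligands were lowest in replicate 2 and highest in replicate 3. The part of lymphocytes or of immediate-early induction in these differences was not tested.

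Tgfa, a ligand long known in intestinal epithelium, rose by less than a doubling from the first sort to the last. In PBS mice it stood at 14.6, 12.4 and 13.8 CPM in Lgr5high, 17.4, 11.9 and 15.9 in Lgr5med, 21.6, 17.4 and 21.1 in Lgr5low and 21.9, 25.7 and 24.7 in Lgr5neg libraries. In NRG1 mice the same sorts gave 12.6 to 13.3, 15.7 to 16.1, 15.7 to 23.1 and 17.7 to 23.5 CPM. Deposited Tgfa counts of PBS mice were 316, 320 and 303 in Lgr5high and 300, 331 and 311 in Lgr5neg libraries. The rise therefore rests on the scaling of library sizes. Lgr5neg cells were above Lgr5high cells by a log2 difference of 0.90 (SE 0.17, adjusted p = 9.78e-05) in PBS and 0.82 (SE 0.17, adjusted p = 0.000309) in NRG1 mice. The corresponding differences from Lgr5med cells were 0.75 (adjusted p = 0.000631) and 0.52 (adjusted p = 0.0108). Between Lgr5low and Lgr5neg cells Tgfa was not called (0.35, adjusted p = 0.0845, and 0.26, adjusted p = 0.192). Lgr5neg was nonetheless the higher of the pair within each of the 6 mice, by 0.02 to 0.57 on the log2 CPM scale, and in PBS mice these groups did not overlap, as for 59.9% of all genes. Lgr5low was above Lgr5high by 0.55 (adjusted p = 0.0146) and 0.56 (adjusted p = 0.0193). That last step was lost in PBS mice without Lgr5high replicate 2 (0.0668) and in NRG1 mice without Lgr5high replicate 1 (0.0717), Lgr5high replicate 3 (0.0572) or Lgr5low replicate 3 (0.175).

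Egf ran the other way at the end of the order. It was at 0.731 to 0.776 CPM in Lgr5high, 1.00 to 1.99 in Lgr5med, 0.720 to 2.68 in Lgr5low and 0 to 0.365 in Lgr5neg libraries of PBS mice. The same sorts of NRG1 mice gave 0.390 to 0.559, 0.829 to 2.37, 1.99 to 2.39 and 0 to 0.516 CPM. Lgr5neg cells lay below Lgr5low cells by a log2 difference of -3.30 (SE 0.77, adjusted p = 0.00103) in PBS and -2.89 (SE 0.65, adjusted p = 0.000985) in NRG1 mice, and below Lgr5med cells by -3.08 (adjusted p = 0.0016) and -2.55 (adjusted p = 0.00217). The fall against Lgr5high cells was called in PBS mice (-2.18, SE 0.80, adjusted p = 0.0197) and not in NRG1 mice (-0.69, SE 0.70, adjusted p = 0.388), and the PBS call was lost without Lgr5neg replicate 2 (0.0736) or replicate 3 (0.0642). The rise from Lgr5high to Lgr5low cells was called in NRG1 mice (2.20, SE 0.57, adjusted p = 0.00803) and not in PBS mice (1.12, adjusted p = 0.15).

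Secretory cell markers were read beside Egf. Enteroendocrine markers (9 genes) were called higher in Lgr5low than in Lgr5high cells for 7 genes in PBS and 8 in NRG1 mice. Of all genes 19.1% and 15.5% were called higher there. In Lgr5neg against Lgr5low cells 7 of these markers were called lower in each arm, where 30.6% and 30.4% of all genes were. Paneth markers (8 genes) were lower in Lgr5neg than in Lgr5low cells for 7 in each arm, but 0 were called between Lgr5low and Lgr5high cells in edgeR (0 in PBS and 1 in NRG1 mice at an unadjusted p under 0.05). Goblet markers (7 genes) were higher in Lgr5low than in Lgr5high cells for 7 in each arm and lower in Lgr5neg than in Lgr5low cells for 5 in PBS and 7 in NRG1 mice. Unlike Egf in PBS mice, 5 of them were higher in Lgr5neg than in Lgr5high cells in each arm, where 32% of all genes were. In the Lgr5low libraries of PBS mice the Paneth sum was 909, 4494 and 3899.7 CPM, the enteroendocrine sum 306, 814 and 1219.9 CPM, and Egf 0.720, 1.54 and 2.68 CPM. The first of the 3 was lowest on each measure. In NRG1 mice the Lgr5low sums were 849.9, 4994 and 4797 CPM for Paneth and 331, 699 and 1240.03 CPM for enteroendocrine markers, while Egf stood at 1.99, 2.39 and 2.32 CPM. The part of these cells in the Egf differences was not tested.

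Nrg4, a neuregulin that acts through ErbB4, was highest in the stem cell sort. Its Lgr5high libraries stood at 7.83, 5.55 and 10.8 CPM in PBS mice and at 8.30, 8.22 and 8.14 CPM in NRG1 mice. Of the 18 other libraries only Lgr5med NRG1 replicate 1 (6.68 CPM) lay above the lowest of these, and Lgr5neg PBS replicate 3 was level with it at 5.55 CPM. Lgr5low cells, at 1.36 to 5.25 CPM over both arms, lay below Lgr5high cells by -1.33 (SE 0.38, adjusted p = 0.0112) in PBS and -1.47 (SE 0.33, adjusted p = 0.00302) in NRG1 mice. Lgr5neg cells lay below them by -0.92 (SE 0.38, adjusted p = 0.0411) and -1.01 (SE 0.32, adjusted p = 0.011). The difference of Lgr5med from Lgr5high cells was not called (-0.86, adjusted p = 0.178 in PBS and -0.76, adjusted p = 0.232 in NRG1 mice). The other 3 populations did not differ from each other by an adjusted p under 0.05 in either arm.

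The Nrg4 calls of PBS mice rested on single libraries. The Lgr5low call was lost without Lgr5high replicate 3 (adjusted p = 0.0629). The Lgr5neg call was lost without Lgr5high replicate 1 (0.0664), Lgr5high replicate 3 (0.178), Lgr5neg replicate 1 (0.101) or Lgr5neg replicate 2 (0.15). In NRG1 mice the Lgr5neg call was lost without Lgr5neg replicate 3 (0.0527), and the Lgr5low call held in every alternative. Nrg4 shares 368 exon bases with Fbxo22 on the other strand, and since the strand setting of the counting is not known, reads there may belong to either gene. The same holds for 607 and 500 exon bases of Egf, 141 of Ereg and 118 of Tgfa that are shared with annotated transcripts of the other strand. Fbxo22 was at 34.3 to 86.5 CPM, and its log2 difference between Lgr5low and Lgr5high cells of PBS mice was -0.34 (adjusted p = 0.127).

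Btc, the betacellulin gene at the far end of the chromosome 5 group, was lower in Lgr5neg cells. It stood at 2.26, 1.86 and 1.35 CPM there in PBS mice and at 1.04, 1.80 and 1.92 CPM in NRG1 mice. The Lgr5high libraries were at 4.63, 3.57 and 2.60 CPM and 3.01, 3.00 and 3.64 CPM, all above them. Between these sorts 71.3% (PBS) and 70.5% (NRG1) of all genes tested had no overlap. The log2 difference was -0.90 (SE 0.36, adjusted p = 0.0325) in PBS and -0.91 (SE 0.34, adjusted p = 0.027) in NRG1 mice. Against Lgr5low cells it was called in NRG1 mice (-1.0, SE 0.35, adjusted p = 0.0207) and not in PBS mice (-0.71, adjusted p = 0.0974, and 0.0254 without Lgr5low replicate 2). Against Lgr5med cells of NRG1 mice it was not called (-0.77, adjusted p = 0.06), but it was without Lgr5med replicate 3 (0.0322) and with all 24 libraries in 1 model (0.0488). Between the Lgr5high, Lgr5med and Lgr5low sorts Btc gave no call in either arm.

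None of the 3 Btc calls held throughout. In PBS mice the call was lost without Lgr5high replicate 1 (adjusted p = 0.141), Lgr5high replicate 2 (0.0571), Lgr5neg replicate 2 (0.0572) or Lgr5neg replicate 3 (0.104). In NRG1 mice the Lgr5high call was lost without Lgr5high replicate 3 (0.0757) or Lgr5neg replicate 1 (0.103), and the Lgr5low call without Lgr5low replicate 1 (0.0707), Lgr5low replicate 3 (0.0699) or Lgr5neg replicate 1 (0.0805). The chromosome 5 neighbours differed in direction, with Areg and Ereg higher in Lgr5neg cells, Btc lower and Epgn near zero.

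**Figure D3:**
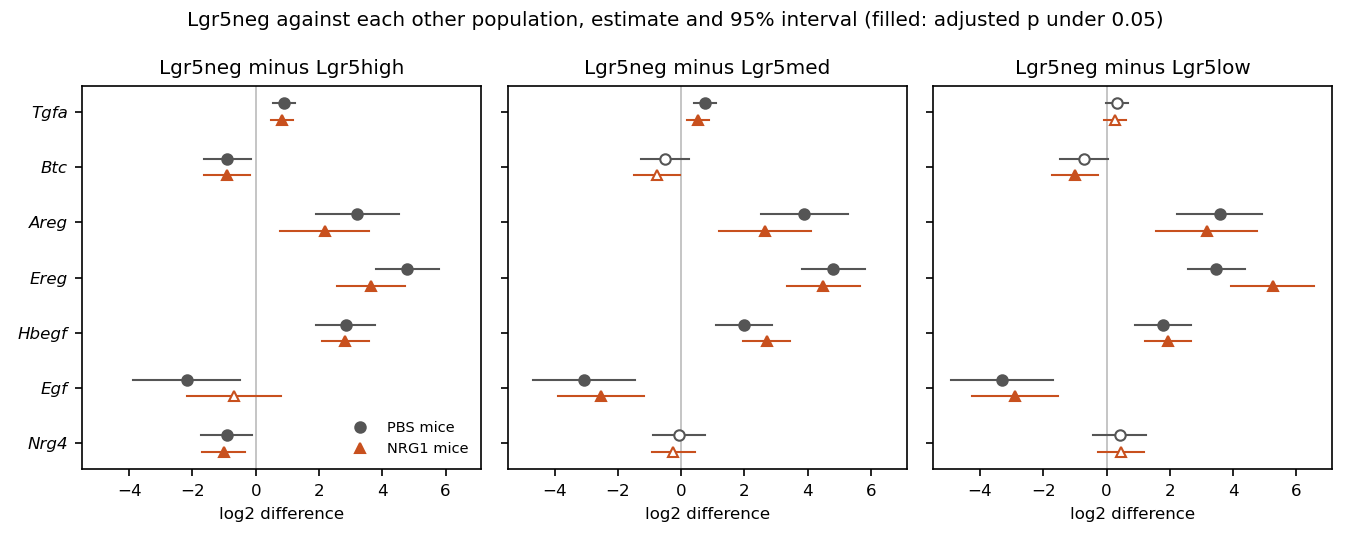
Log2 difference of Lgr5neg minus Lgr5high, Lgr5med and Lgr5low (3 panels) for the 7 tested ligands, with circles for PBS mice, triangles for NRG1 mice, lines for 95% intervals and filled symbols for an adjusted p under 0.05. Areg, Ereg and Hbegf lie to the right of 0 in every panel and arm, and Egf to the left, at -3.30 to -0.69.

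One further call was fragile. Ereg differed between Lgr5low and Lgr5high cells of PBS mice by 1.32 (SE 0.49, adjusted p = 0.0439), from 0.0926, 0.349 and 0.685 CPM to 1.40, 0.813 and 0.621 CPM, and the groups overlapped. Leaving out 1 library ended the call for 9 of the 12 libraries, with adjusted p = 0.18 without Lgr5high replicate 1, 0.111 without Lgr5high replicate 2, 0.21 without Lgr5low replicate 1, 0.0575 without Lgr5low replicate 2, 0.0511 and 0.0524 without Lgr5med replicates 2 and 3, and 0.0529, 0.0506 and 0.0571 without Lgr5neg replicates 1, 2 and 3. With all 24 libraries in 1 model it was 0.0665. Within mouse 3 the difference was -0.12 on the log2 CPM scale. In NRG1 mice the Ereg difference was -1.62 (SE 0.68, adjusted p = 0.0936), and it was called without the filter (0.0225) and without Lgr5high replicate 3 (0.0453), within 0.0225 to 0.414.

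The second comparison asked whether 5 days of NRG1 changed the ligands within a population. It gave no call. Of 25 tests of a ligand in a population 0 passed, where 7.33% of all genes were called in Lgr5high, 9.55% in Lgr5med, 0.443% in Lgr5low and 0.328% in Lgr5neg cells. At an unadjusted p under 0.05 there were 3, and DESeq2 called 0 of the 21 ligand tests for which it gave an adjusted p. For Tgfa, the most abundant ligand per length, the log2 differences lay between -0.17 and 0.10, and the 95% intervals in the 4 populations reached from -0.55 to 0.45. For Nrg4 they lay between -0.13 and 0.13. Intervals of the scarcer ligands were wide: that of Ereg in Lgr5high cells ran from -0.46 to 2.47.

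The lowest unadjusted p belonged to Areg in Lgr5neg cells. Its 3 NRG1 libraries (2.47, 1.67 and 2.65 CPM) lay below all 3 PBS libraries (10.3, 4.42 and 3.81 CPM), where 15.9% of all genes tested in that sort had no overlap. The log2 difference was -1.44 (SE 0.40, 95% interval -2.32 to -0.57), with an unadjusted p = 0.00321 and an adjusted p = 0.178. Adding the replicate number to the model as a block brought a call (-1.34, adjusted p = 0.0122), as it was without the filter on low counts (-1.45, adjusted p = 0.0133), and DESeq2 gave 0.0594. Without Lgr5neg PBS replicate 1 it was -0.88 (adjusted p = 0.54), 1.85-fold lower against 2.72-fold lower with all libraries. Within the 15-week-old mice the difference was -1.68 (2 mice per arm) and within the 11-week-old mice -0.51 (1 mouse per arm).

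Other measures also separated the Lgr5neg arms, where 15.9% of all genes tested had no overlap and 0.328% were called. The share of all genes at an unadjusted p under 0.05 is not given here, so the counts at that threshold cannot be set against it. The immediate-early sum was lower in all 3 NRG1 (867, 689 and 882 CPM) than in all 3 PBS libraries (1199, 974 and 1028 CPM), with 0 of 13 of these genes called in edgeR and 3 at an unadjusted p under 0.05. Goblet markers summed to 1395 to 4489 CPM in NRG1 and 5618 to 7890.4 CPM in PBS libraries, with 0 of 7 called and 6 at an unadjusted p under 0.05. Macrophage and mast cell markers (6 genes) summed to 18.9 to 26.0 against 33.6 to 41.9 CPM, with Itgam called lower (-0.94, adjusted p = 0.0471). Itgam made up most of that sum, with a mean of 16.78 CPM with NRG1 against 32.03 CPM with PBS. Mean levels of Kit (3.78 against 3.54 CPM) and Cd68 (1.12 against 0.97 CPM) were higher with NRG1 and not called. Those of Csf1r, Lyz2 and Cpa3 were lower with NRG1, but at 0.23 CPM or less in both arms. Stem cell markers (8 genes) summed to 56.3 to 66.3 against 87.1 to 92.4 CPM, with 1 of 7 tested called lower. The stem cell markers did not move together. Mean levels of Axin2 (15.6 CPM with NRG1 against 41.1 CPM with PBS), Rnf43 (11.4 against 17.7 CPM), Znrf3 and Cdca7 were lower with NRG1. Those of Lgr5, Ascl2, Olfm4 (20.14 against 15.95 CPM) and Smoc2 were higher. Lymphocyte markers overlapped between the arms. The part of any of these in the Areg difference was not tested.

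Hbegf in Lgr5med cells and Ereg in Lgr5low cells were the other pair below an unadjusted p of 0.05. Hbegf was at 1.66, 1.06 and 1.13 CPM with NRG1 and at 4.10, 1.16 and 2.81 CPM with PBS (log2 difference -1.05, SE 0.43, adjusted p = 0.144), and the arms overlapped. Ereg was at 0.319, 0.0870 and 0.363 CPM with NRG1 and at 1.40, 0.813 and 0.621 CPM with PBS (log2 difference -1.94, SE 0.69, adjusted p = 0.239), without overlap, as for 18.5% of all genes tested in that sort, but on 2 to 5 counts per NRG1 library. Both stayed short of a call in every alternative run. Ligands too low for the test in 1 population each were Ereg in Lgr5med, Areg in Lgr5low and Egf in Lgr5neg cells.

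**Figure D4:**
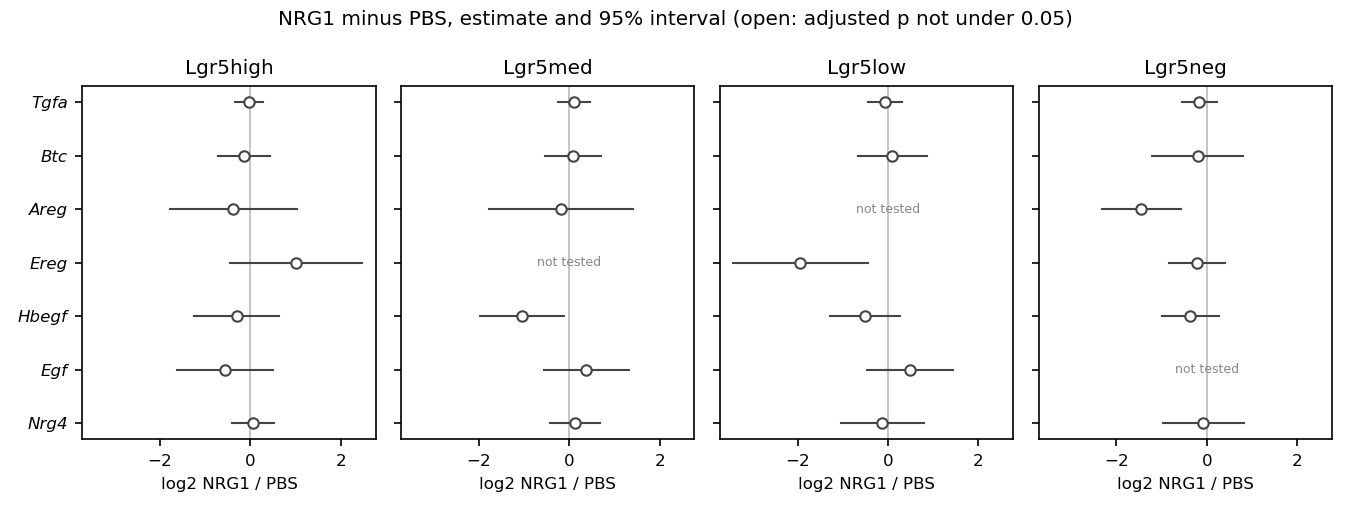
Log2 difference of NRG1 minus PBS for the 7 ligands in the 4 populations (panels), as circles with 95% intervals, all open because no adjusted p was under 0.05. Areg in Lgr5neg (-1.44), Ereg in Lgr5low (-1.94) and Hbegf in Lgr5med (-1.05) are the intervals that leave out 0.

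Whether the response to NRG1 differed between populations was asked with an interaction term in a model of all 24 libraries. Of 21 tests, for 7 ligands in Lgr5med, Lgr5low and Lgr5neg cells each against Lgr5high cells, 0 were called, where 0%, 0% and 0.0532% of all genes were. DESeq2 also called 0, and 1 test had an unadjusted p under 0.05. That was Ereg in Lgr5low against Lgr5high cells (-2.97, SE 0.86, unadjusted p = 0.00162, adjusted p = 1.00), which was called only without the filter (0.0289). Areg in Lgr5neg against Lgr5high cells gave -1.07 (SE 0.92, adjusted p = 0.81), so its response was not shown to be particular to the differentiated sort.

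Genes that act on the ligands were read beside them. Of 18 genes for ligand cleavage and trafficking 15 were tested between Lgr5neg and Lgr5high cells, with 6 higher and 3 lower in Lgr5neg in PBS mice and the same counts in NRG1 mice (medians 0.20 and 0.31). With 67.4% and 65.5% of all genes called, these 9 of 15 do not set the list apart. Frmd8, which encodes a partner of the iRhom proteins, was higher by 2.32 (SE 0.18) and 2.14 (SE 0.20). Rhbdf2, the gene of iRhom2, which brings the protease ADAM17 to the surface, was higher by 1.12 (SE 0.25, adjusted p = 0.000498) and 0.84 (SE 0.16, adjusted p = 0.000212). Adam17 itself, which cuts TGFα, amphiregulin, epiregulin and HB-EGF, and Adam10, which cuts EGF and betacellulin, were not called in either arm. Timp3, an inhibitor of ADAM17, was lower by -3.91 (SE 0.30) and -3.15 (SE 0.49). Rhbdl2, a rhomboid protease, was higher by 1.82 (SE 0.24) and 2.71 (SE 0.33).

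The receptors and their inhibitors moved between the same sorts. Egfr was lower in Lgr5neg than in Lgr5high cells by -1.19 (SE 0.14) in PBS and -1.52 (SE 0.13) in NRG1 mice, while Erbb2 (1.19 and 1.35) and Erbb3 (1.27 and 1.44) were higher. Summed counts in Lgr5high and Lgr5neg libraries of PBS mice were 5484 and 6730 for Erbb2 and 10948 and 14254 for Erbb3. The size of these 2 rises therefore also rests on the scaling of library sizes. Erbb4, the receptor of Nrg4, had 1 count in each of 2 libraries and 0 in the others. Of 8 receptor inhibitors 3 were higher and 2 lower in PBS mice, and 2 were higher and 1 lower in NRG1 mice. With 67.4% and 65.5% of all genes called in either direction, these counts do not set the inhibitors apart. Among the inhibitors Lrig1, which promotes receptor degradation, was lower by -3.42 and -2.93, and Errfi1, an inducible inhibitor of EGFR, was higher by 1.91 and 1.33. Under NRG1 against PBS, Erbb3, a receptor of NRG1, was called higher in Lgr5high (0.52, adjusted p = 0.0205) and Lgr5med cells (0.65, adjusted p = 0.00456). It was not called in Lgr5low (0.54, adjusted p = 0.111) or Lgr5neg cells (0.63, adjusted p = 0.157). The arms did not overlap for Erbb3 in any of the 4 populations. Of all genes tested 27% in Lgr5high, 30.6% in Lgr5med, 18.5% in Lgr5low and 15.9% in Lgr5neg cells had no overlap either. Egfr and Erbb2 were not called in any. Lrig3 was called higher in Lgr5high cells (0.50, adjusted p = 0.0334). Cd9, a tetraspanin that associates with HB-EGF, was called higher in Lgr5high (0.55) and Lgr5med (0.66) cells and Timp3 lower in Lgr5high cells (-1.0).

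**Figure D5:**
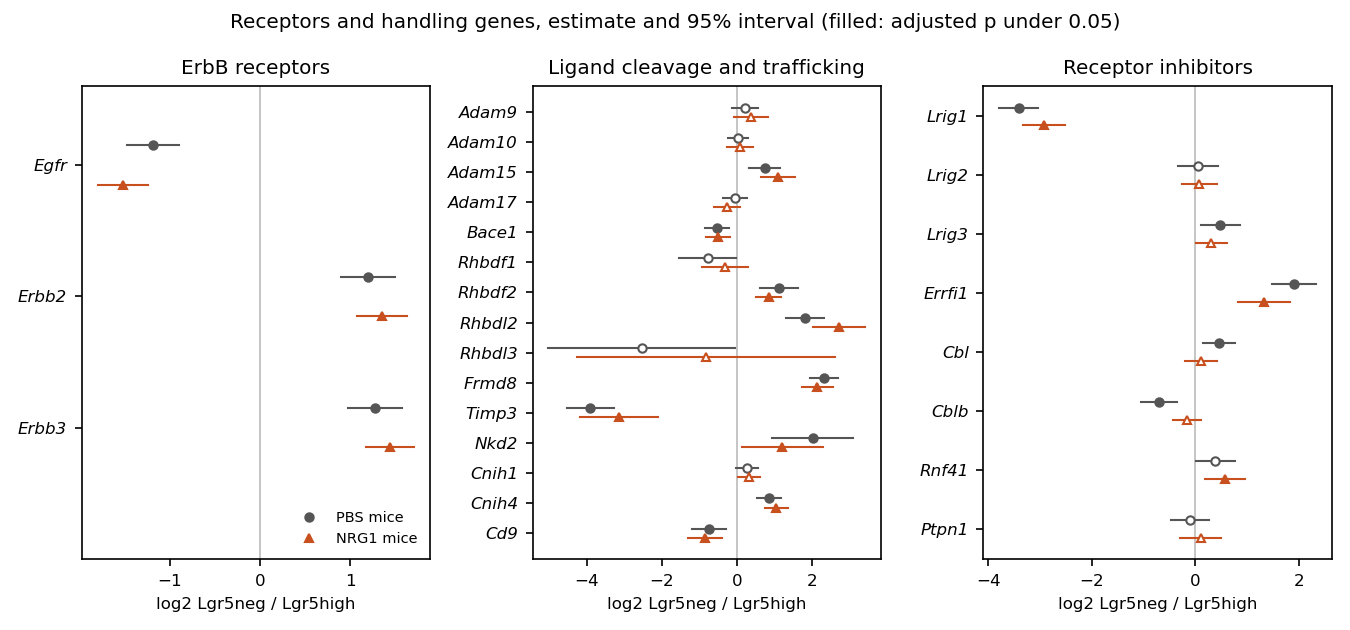
Log2 difference of Lgr5neg minus Lgr5high cells for the tested ErbB receptors, ligand cleavage and trafficking genes and receptor inhibitors (3 panels with their own x axes), with circles for PBS mice, triangles for NRG1 mice, lines for 95% intervals and filled symbols for an adjusted p under 0.05. Timp3 (-3.91 and -3.15) and Lrig1 (-3.42 and -2.93) lie farthest to the left, and Frmd8 (2.32 and 2.14) and Rhbdl2 (1.82 and 2.71) to the right.

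Genes with the most similar profile were found by Pearson correlation of log2 CPM over the 24 libraries among 12449 genes. The libraries share mice and fall into 4 sorts, so high values mostly describe the steps between sorts. Tgfa was most like Pank3 (0.906), Slc39a9 and Ido1, Areg most like Abca1 (0.900), Slc16a10 and Ap1m1, and Ereg most like Arhgap42 (0.950) and Igsf3. Hbegf was most like Slc25a11 (0.962), Zfp36, an immediate-early gene, and Hadha. For Egf the nearest were Nkx2-2 (0.909), an enteroendocrine transcription factor, Qsox1 and Cd97, for Nrg4 Fgfr4 (0.814) and the symbol Clca1, and for Btc Rnf26 (0.823), Poldip2 and Iqck. Among the ligands themselves Areg, Ereg and Hbegf correlated at 0.781 to 0.805 with each other, while Areg and Ereg correlated with Btc at -0.48 and -0.72.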

How the data were processed

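Raw counts per gene symbol, deposited by the authors, came from 24 libraries made from 15 ng of RNA each and read as 76-base single ends. The submitters' processing notes name STAR, featureCounts and GRCm38. Versions, annotation release and strand setting are not given in the sources used here. Counts were tested as deposited with edgeR 4.0.16 (R 4.3.3): TMM scaling, genes kept by filterByExpr (minimum count 10, minimum total 15), quasi-likelihood F test and Benjamini-Hochberg adjustment over all genes tested. Treatment was tested within each population, populations within each arm, and interactions over all 24 libraries. DESeq2 1.42.0, other scaling, no filter, leaving out each library, and blocks were alternatives. The scripts were tested on simulated data. CPM used TMM scaling over all 24 libraries, log2 CPM a prior count of 2, and levels per kb the union exon length of GENCODE vM21. Library totals were 11176264 to 23343499 counts, and precision at a few counts is set by counting error.

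The members and gene lists were chosen with earlier results of these data known. All 9 ligands are named, other genes come from fixed lists, and the genes of most similar profile are the 3 with the highest correlation per ligand, of which some are not reported here. Same-numbered populations came from the same mouse. Across arms the numbers share an age, and same-numbered libraries deviated together in Lgr5med (correlations 0.110 to 0.265), Lgr5low (0.176 to 0.239) and Lgr5neg cells (0.191 to 0.293) but not throughout in Lgr5high cells (0.0868 to 0.281). Promoter windows were used for 6 of 9 ligands. There was none for Ereg or Nrg1, and Hbegf was left out of the search.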

Additional observations from a re-analysis of the deposited data

How the results depend on the processing

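The count of ligand calls for NRG1 against PBS went from 0 to 1 without the filter on low counts and to 1 with the replicate number as a block, in both cases through Areg in Lgr5neg cells, and the interaction count went from 0 to 1 without the filter. The cause was not tested. Leaving out 1 library at a time kept both counts at 0. For population pairs the count of 19 in PBS mice ran from 15 to 19 when 1 library was left out, and that of 19 in NRG1 mice from 18 to 20. With the mouse as a block each was 20. Of 38 called differences 28 kept their call under every alternative planned, 10 lost it under at least 1, and 0 reversed. Of 36 uncalled differences of at least 0.5 (log2), 9 were called under at least 1 alternative. Areg reversed between Lgr5med and Lgr5high cells of PBS mice without Lgr5high replicate 1 (0.24, in a range of -1.13 to 0.24 over the libraries left out), and between Lgr5low and Lgr5med cells of NRG1 mice without Lgr5med replicate 3 (0.0031, in a range of -1.08 to 0.0031). Ereg between Lgr5low and Lgr5high cells reversed within PBS mouse 3 (-0.12), in a within-mouse comparison added after seeing the data. Depth limits Nrg1, Epgn and, in Lgr5neg cells, Egf.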
